A study of Mus musculus with 12 samples.

Results

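The genes described here are 33 mouse genes of cholesterol synthesis, transport and turnover, chosen by name: enzymes of sterol synthesis, the SREBP control system, the LXR receptors with some of their targets, and proteins that move, store or remove cholesterol. All 33 were found among the 43346 genes of the deposited table, and all 33 passed the filter on low counts. They were measured by RNA sequencing in 12 brain libraries, 4 in each of 3 groups. Old_CP2 libraries came from mice aged 23 months with C57BL/6;SJL-Tg as strain label. From 9 months of age their drinking water held 0.1% polyethylene glycol (PEG) and CP2, which inhibits mitochondrial complex I, at a daily dose of 25 mg/kg. Old libraries matched them in age and strain label, and these mice took 0.1% PEG alone from 9 months on. Young libraries came from untreated mice aged 3 months whose strain label was C57BL/6. All 12 libraries carry the genotype label wild type and a title that begins with NTG, whereas the series' design text speaks of treated and untreated APP/PS1 mice beside non-transgenic ones, a conflict the labels do not resolve. The tissue was a slab across the brain that contained cortex and hippocampus. No label states that each library is a separate animal, so the p-values measure spread between libraries.

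The brain makes nearly all of its own cholesterol, because lipoproteins of the blood do not cross the blood-brain barrier. Synthesis runs from acetyl-CoA through mevalonate and squalene to lanosterol and on to cholesterol, and its enzymes are switched on together by the transcription factor SREBP-2 when membranes of the endoplasmic reticulum are poor in sterol. Oligodendrocytes need cholesterol for myelin, astrocytes supply it to neurons on lipoprotein particles, and oxidised sterols activate the LXR receptors, which raise the genes for export. Neurons remove surplus cholesterol by hydroxylating it with the enzyme encoded by Cyp46a1, and the product leaves the brain.

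Levels are given as normalised CPM, which is counts scaled to library size after TMM normalisation. The libraries held 78021395 to 99449665 counts in Old_CP2, 70548781 to 94741585 in Old and 77469073 to 91549618 in Young. The lowest count of any member in any library was 203, for Nr1h3. Markers of neurons, which include Camk2a and Slc17a7 of cortical and hippocampal excitatory cells, summed to between 6851 and 8986 CPM in every library. The list also holds markers shared by neurons of other regions. Its sum therefore does not show how much cortex or hippocampus a slab held. The slabs differed in markers of other regions and tissue. Choroid plexus markers summed to between 24.6 and 837 CPM in Old_CP2, between 27.9 and 973 CPM in Old and between 1220 and 1966 CPM in Young. Midbrain and hindbrain markers summed to between 22.4 and 120.6 CPM in Old_CP2, between 33.2 and 71.5 CPM in Old and between 4.22 and 5.72 CPM in Young. Striatal markers summed to between 212 and 279 CPM in Old_CP2, between 230.4 and 288 CPM in Old and between 344 and 567 CPM in Young.

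Divided by the deposited gene length, the most abundant member was Hmgcs1, the synthase that commits carbon to mevalonate, with a mean of 75.0 CPM per kilobase over the 12 libraries. Cyp46a1 followed at 66.1 CPM per kilobase and Srebf2, which encodes SREBP-2, at 44.8 CPM per kilobase. The next were Fdps and Fdft1, which build farnesyl diphosphate and squalene, at 30.8 and 30.4 CPM per kilobase. Insig1, which holds SREBP in the endoplasmic reticulum, was at 28.4 CPM per kilobase. At the low end stood Lss, the lanosterol synthase, at 3.67 CPM per kilobase and Nr1h3, which encodes LXR alpha, at 1.28 CPM per kilobase. The deposited length was 10787 bases for Lss and 1241 bases for Fdps, while their undivided means were 39.5 and 38.3 CPM. The order thus depends on the deposited lengths. Nr1h2, which encodes LXR beta, was at 13.1 CPM per kilobase. The members varied little over the 12 libraries. Their coefficient of variation was lowest for Fdft1, at 2.82%, and highest for Soat1, an enzyme that esterifies cholesterol for storage, at 16.8%.

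**Figure D1:**
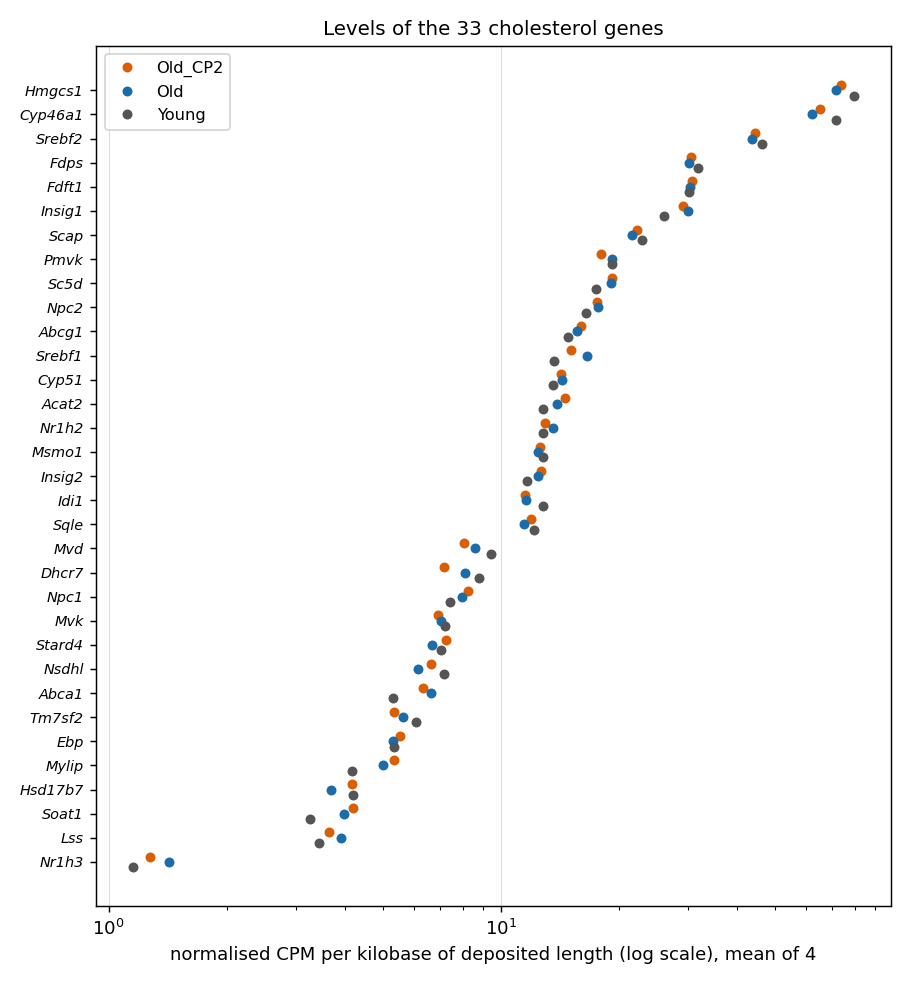
Mean level of the 33 members in each group, as normalised CPM per kilobase of the deposited length on a log axis, with 1 point per group of 4 libraries. Hmgcs1, Cyp46a1 and Srebf2 stand at the top and Nr1h3 at the bottom, and the 3 groups lie close together for every gene.

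Old set against Young bears on how these transcripts differed between 23 and 3 months. Among the 33 members, 5 rose in Old, by 14 to 25%: Abca1, Mylip, Srebf1, Insig1 and Lss. None fell by edgeR at an adjusted p under 0.05, while 4 had a lower level at an unadjusted p under 0.05, and DESeq2 called 2 of those 4, Hmgcs1 and Nsdhl. Over all 22553 genes tested, edgeR called 6.7% in either direction, 3.96% higher and 2.74% lower, beside 15.2% of the members. The members' count fell with any 1 of the 8 libraries left out, to between 1 and 3 called higher. Genes called in all fell in these runs too, from 1511 to between 855 and 1258. Without Old 7, 1 member was called higher and 934 genes were called in all. These runs hold fewer libraries, and the part of that in the drop was not tested. The median log2 fold change of the members was -0.00308, beside -0.00342 for all genes. At an unadjusted p under 0.05, 9 members were higher and 4 were lower, where 21.4% of all genes passed, 11.2% higher and 10.3% lower. Values of the 4 Old and the 4 Young libraries did not overlap for 6 members in the upward direction, against 6.94% of all genes, and for 2 in the downward direction, against 6.32% of all genes. Age, strain label and PEG water all differ between these groups and cannot be told apart. Bulk RNA also cannot tell fewer cells of a type from less RNA per cell.

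**Figure D2:**
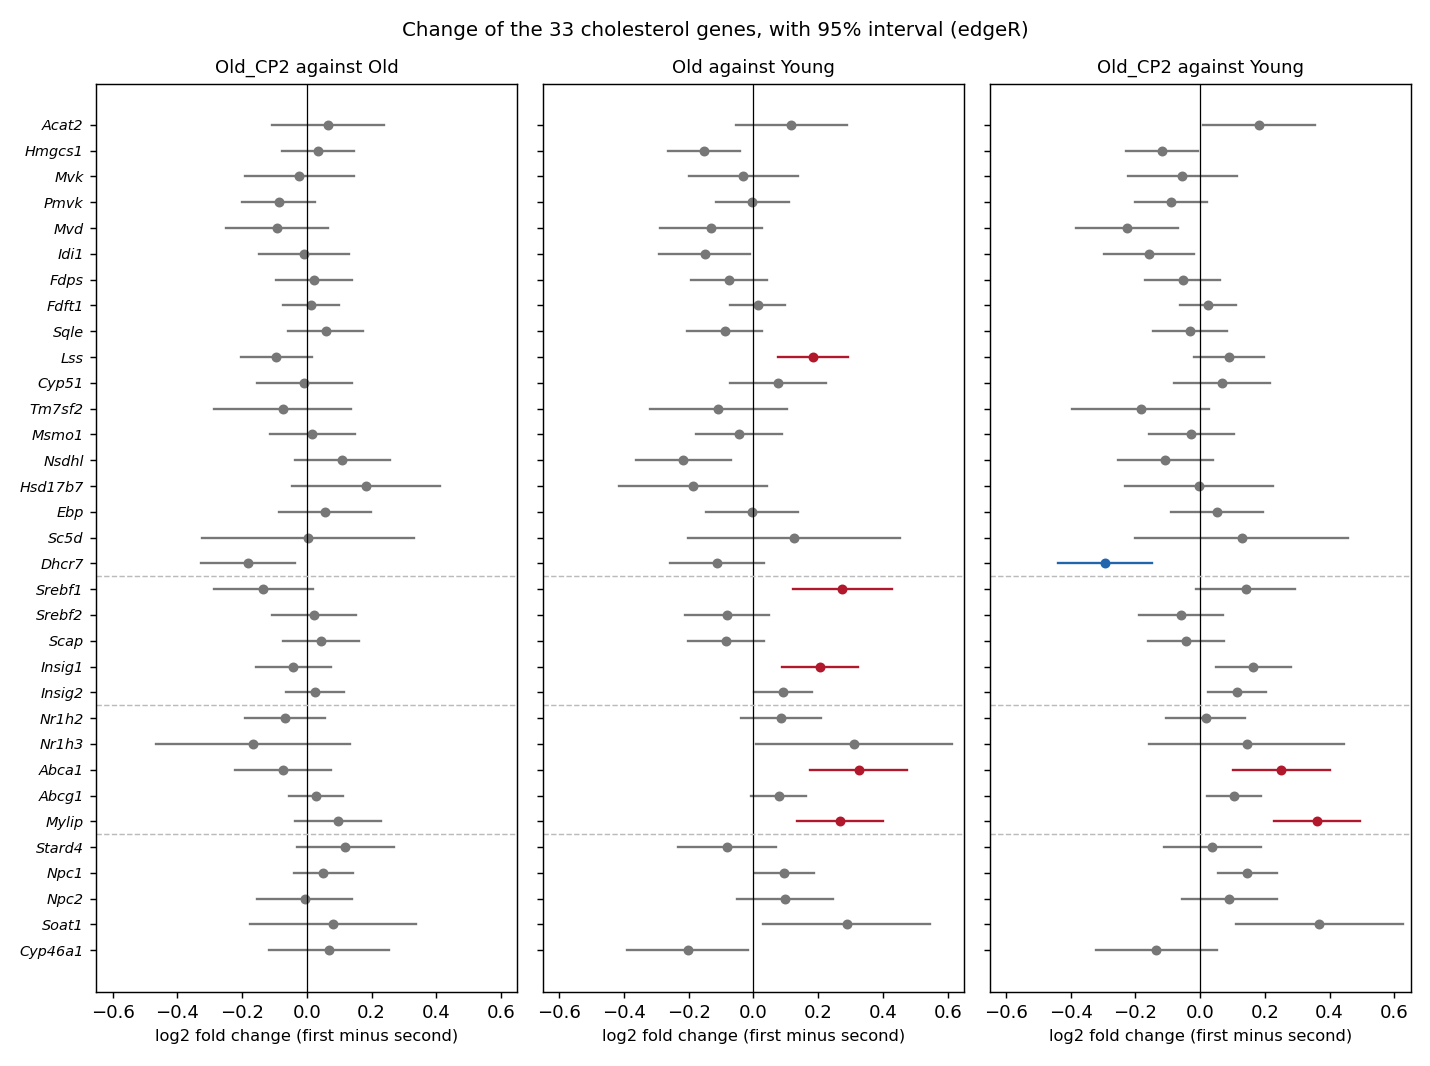
Log2 fold change of each member with its 95% interval from edgeR, in Old_CP2 against Old, Old against Young and Old_CP2 against Young, with dashed lines between sterol synthesis, SREBP control, LXR and export, and transport, storage and turnover. Red marks a member called higher, blue one called lower and grey one not called, and no member is coloured in Old_CP2 against Old.

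Of the genes for the LXR receptors, their targets and cholesterol export, 2 of 5 rose in Old and 0 fell. Among all genes, 3.96% were called higher and 2.74% lower. Abca1, the transporter that loads cholesterol onto lipoprotein particles and a classical LXR target, was at 72.9, 69.3, 64.6 and 69.0 CPM in the 4 Old libraries, against 47.7, 60.3, 58.9 and 53.2 CPM in the 4 Young libraries. Every Old value lay above every Young value, and Young 1 was the lowest. The means were 68.9 ± 3.42 CPM in Old and 55.0 ± 5.79 CPM in Young (SD, n = 4 each), a log2 fold change of 0.32 ± 0.0692 (SE, edgeR adjusted p = 0.0157). Abca1 stayed called without any 1 of the 8 libraries, at an adjusted p of 0.0127 to 0.0435.

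Mylip encodes a ubiquitin ligase that marks lipoprotein receptors for degradation and is likewise an LXR target. It was at 15.8, 14.6, 16.2 and 14.9 CPM in Old, against 12.01, 12.8, 12.5 and 13.7 CPM in Young, again with no overlap. The log2 fold change was 0.27 ± 0.0617 (SE, adjusted p = 0.0232), and the call was lost without Young 1 (adjusted p = 0.0588), Young 4 (0.0614), Old 7 (0.0559) or Old 9 (0.0586). The other 3 genes did not pass the test. Abcg1, a second cholesterol exporter, averaged 63.7 ± 1.33 CPM in Old and 60.4 ± 2.30 CPM in Young (SD, n = 4 each). Nr1h3 averaged 3.59 ± 0.742 CPM in Old, where Old 7 was highest at 4.62 CPM, and 2.90 ± 0.268 CPM in Young. For Nr1h2 the means were 45.6 ± 0.721 CPM in Old and 43.0 ± 2.92 CPM in Young. The 5 genes together summed to between 193.8 and 202 CPM in the Old libraries and between 169 and 177 CPM in the Young libraries.

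Promoters of 27 members were found among the RefSeq sequences of build GRCm38.p6, and the 250 bases before each start were searched on both strands. Fdps, Fdft1, Sqle, Stard4, Abcg1 and Npc1 were not searched. The first motif was the direct repeat bound by LXR, chosen after the data were seen and modelled on the element known from Abca1. It occurs in 0.178% of all 32544 promoters of this length. By gene, it occurs in 0.191% of the 26742 genes listed and in 2 of the 27 members searched. The match in Abca1 follows from that choice, and the other is in Srebf1. Since the motif was chosen with the data seen, neither match is independent evidence. Of the 5 members that rose in Old, the 3 others, Mylip among them, have no match in this window. The second was the core of the sterol response element bound by SREBP, TCACNCCAC. This core occurs in 1.04% of all promoters, in 1.22% of all genes listed and, of the 27 members searched, in Hmgcs1. These 3 sequences are shown because they carry those elements. Each is given in the direction of the gene and ends at the base before the start, and the capitals mark the match. In Abca1 and Srebf1 the match reads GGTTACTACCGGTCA and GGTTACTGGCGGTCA on the other strand.
Abca1 (chr4:53159896-53160145, minus strand): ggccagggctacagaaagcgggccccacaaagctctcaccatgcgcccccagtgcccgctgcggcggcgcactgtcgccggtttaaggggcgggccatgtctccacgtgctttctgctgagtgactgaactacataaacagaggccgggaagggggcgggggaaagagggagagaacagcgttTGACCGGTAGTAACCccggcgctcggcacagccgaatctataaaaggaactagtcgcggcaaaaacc
Srebf1, the downstream of 3 listed starts (chr11:60210472-60210721, minus strand): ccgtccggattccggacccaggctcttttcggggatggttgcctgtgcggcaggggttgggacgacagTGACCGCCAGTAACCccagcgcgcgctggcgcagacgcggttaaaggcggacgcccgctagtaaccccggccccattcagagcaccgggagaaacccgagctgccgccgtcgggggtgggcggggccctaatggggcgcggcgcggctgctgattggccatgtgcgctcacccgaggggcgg
Hmgcs1 (chr13:119690101-119690350, plus strand): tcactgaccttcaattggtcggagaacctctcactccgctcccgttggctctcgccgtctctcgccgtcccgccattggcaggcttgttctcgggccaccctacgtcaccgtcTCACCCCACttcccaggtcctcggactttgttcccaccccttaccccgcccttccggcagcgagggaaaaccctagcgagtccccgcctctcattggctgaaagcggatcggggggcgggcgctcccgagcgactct

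The matches lie 67 to 53 bases before the start in Abca1, 182 to 168 bases in Srebf1 and 137 to 129 bases in Hmgcs1. The box CCAAT of the factor NF-Y, which works beside SREBP, occurs in 22 of the 27 members with a promoter (81.5%), against 37.5% of all 26742 genes listed. The Sp1 box GGGCGG occurs in 23 of the 27 members (85.2%), against 35.6% of all genes. The genes listed were not limited to those that passed the count filter, as all members did. Nor were they matched for the number of starts or base content, so these shares do not show a trait particular to the members. A match of letters is a description of the sequence and does not show binding.

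Of the 5 genes of SREBP control, 2 rose in Old and 0 fell, beside 3.96% higher and 2.74% lower among all genes. Srebf1 encodes SREBP-1, which in many tissues drives genes of fatty acid synthesis and is itself induced by LXR. It was at 91.8, 93.3, 85.9 and 102 CPM in Old, against 71.4, 81.5, 83.4 and 72.4 CPM in Young, with no overlap. The log2 fold change was 0.27 ± 0.0706 (SE, adjusted p = 0.0359), and the call was lost without Young 1 (0.0787), Young 5 (0.0853), Old 7 (0.0569), Old 8 (0.0586) or Old 10 (0.0743). Exons of Srebf1 share 109 bases with the opposite-strand gene Rai1, and reads there cannot be assigned by strand.

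Insig1, the protein that retains SREBP when sterol is plentiful and whose gene is itself an SREBP target, was at 83.5, 86.8, 77.8 and 76.2 CPM in Old, against 67.4, 66.5, 72.2 and 75.1 CPM in Young. The groups did not overlap, though Old 10 and Young 5 lay close together. The log2 fold change was 0.21 ± 0.0539 (SE, adjusted p = 0.0386), and the call was lost without Young 1, Young 3, Young 4, Old 7, Old 8 or Old 9 (0.0514 to 0.0945), and with Old and Young fitted alone (0.0649). Its relative Insig2 averaged 43.1 ± 0.942 CPM in Old and 40.5 ± 1.38 CPM in Young (SD, n = 4 each), without overlap but with an adjusted p of 0.228. Srebf2, the main regulator of the synthesis enzymes, was at 196, 226, 217 and 233 CPM in Old, against 233, 230.5, 242 and 217 CPM in Young. These ranges overlap widely, and the log2 fold change of -0.08 had a 95% interval of -0.21 to 0.05. Scap, which escorts SREBP to the Golgi, averaged 92.4 ± 6.24 CPM in Old and 98.1 ± 2.79 CPM in Young.

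Of the 18 genes for sterol synthesis, 1 rose in Old and 0 fell by edgeR, beside 3.96% higher and 2.74% lower among all genes. A negative log2 fold change was found for 13 of the 18, with a median of -0.06 beside -0.00342 for all genes. The 18 were not tested as a set. Lss, which closes the sterol ring, was at 41.7, 43.3, 41.3 and 42.2 CPM in Old, against 39.8, 36.2, 36.5 and 35.7 CPM in Young, with no overlap. The log2 fold change was 0.18 ± 0.0504 (SE, adjusted p = 0.0462). This call was lost without any 1 library other than Young 1, at an adjusted p of 0.0646 to 0.0967, with no filter on low counts (0.0601) and with Old and Young fitted alone (0.0521). Lss shares 381 exonic bases with the opposite-strand gene 4930483K19Rik, which had 8.64% of its reads.

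Hmgcs1, at the entry of the pathway, was at 223, 245, 219 and 241 CPM in Old, against 259, 249.6, 270 and 253 CPM in Young. Every Old value lay below every Young value, yet the log2 fold change of -0.15 ± 0.0515 (SE) had an adjusted p of 0.097 by edgeR and 0.0431 by DESeq2. Nsdhl, one of the enzymes that strip methyl groups from lanosterol, averaged 17.6 ± 1.58 CPM in Old and 20.4 ± 1.15 CPM in Young (SD, n = 4 each), with an adjusted p of 0.077 by edgeR and 0.0342 by DESeq2. Without Old 10, edgeR called it as well (log2 fold change -0.27, adjusted p = 0.0263). Idi1, which isomerises the isoprene unit, averaged 40.5 ± 3.02 CPM in Old and 45.0 ± 2.83 CPM in Young (adjusted p = 0.193).

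Sqle, the squalene epoxidase that is held to control flux late in the pathway, was at 63.7, 63.2, 60.5 and 66.4 CPM in Old, against 62.5, 68.4, 72.5 and 66.7 CPM in Young. Cyp51, the lanosterol demethylase, was at 64.6, 65.01, 57.3 and 59.1 CPM in Old, against 55.6, 56.5, 60.8 and 60.4 CPM in Young. Both ranges overlap, and the adjusted p-values were 0.369 for Sqle and 0.584 for Cyp51. Cyp51 shares 166 exonic bases with the more abundant Akap9, Fdft1 shares 774 with Ctsb and Tm7sf2 shares 532 with Vps51, so their counts are less certain. The remaining 12 enzymes, from the thiolase Acat2 to Dhcr7, the reductase of a last step, had log2 fold changes between -0.19 and 0.12 and adjusted p-values of 0.332 to 0.985. Among these, Fdft1 was the tightest, at 86.9 ± 1.66 CPM in Old and 86.1 ± 3.44 CPM in Young. Sc5d, a desaturase near the end of the pathway, was the most scattered, at 44.5 ± 5.54 CPM in Old and 40.8 ± 9.12 CPM in Young, where Young 1 was lowest at 28.5 CPM. The 18 enzymes summed to between 844 and 913 CPM in Old and between 888 and 939 CPM in Young.

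None of the 5 genes for transport, storage and turnover passed the test by edgeR or DESeq2. At an unadjusted p under 0.05, 2 were higher and 1 was lower, beside 11.2% higher and 10.3% lower among all genes. Cyp46a1, the neuronal hydroxylase, was at 106, 139, 139 and 142 CPM in Old, against 159.7, 144, 151 and 149.8 CPM in Young. Every Old value lay below every Young value, and Old 7 stood far below the other Old libraries (log2 fold change -0.20 ± 0.0865 SE, adjusted p = 0.19). Without Old 7 the log2 fold change was -0.11. Old 7 also had the lowest summed level of neuron markers of all 12 libraries, at 6851 CPM, and the highest of oligodendrocyte markers, at 8087 CPM, and the part of these in the Cyp46a1 value was not tested. Soat1 averaged 39.0 ± 6.50 CPM in Old and 31.9 ± 2.94 CPM in Young (log2 fold change 0.29, adjusted p = 0.181). With the 4 libraries poorest in choroid plexus markers left out, 2 of them from Old, Soat1 was called (log2 fold change 0.48, adjusted p = 0.0223). The 2 proteins that pass cholesterol out of the lysosome had higher means in Old. Npc1 averaged 85.2 ± 3.11 CPM in Old and 79.7 ± 1.93 CPM in Young (adjusted p = 0.208), and Npc2 averaged 57.6 ± 4.84 CPM in Old and 53.8 ± 3.82 CPM in Young (adjusted p = 0.458). For Stard4, a sterol carrier of the cytosol, the means were 37.2 ± 2.24 CPM in Old and 39.4 ± 2.45 CPM in Young.

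**Figure D3:**
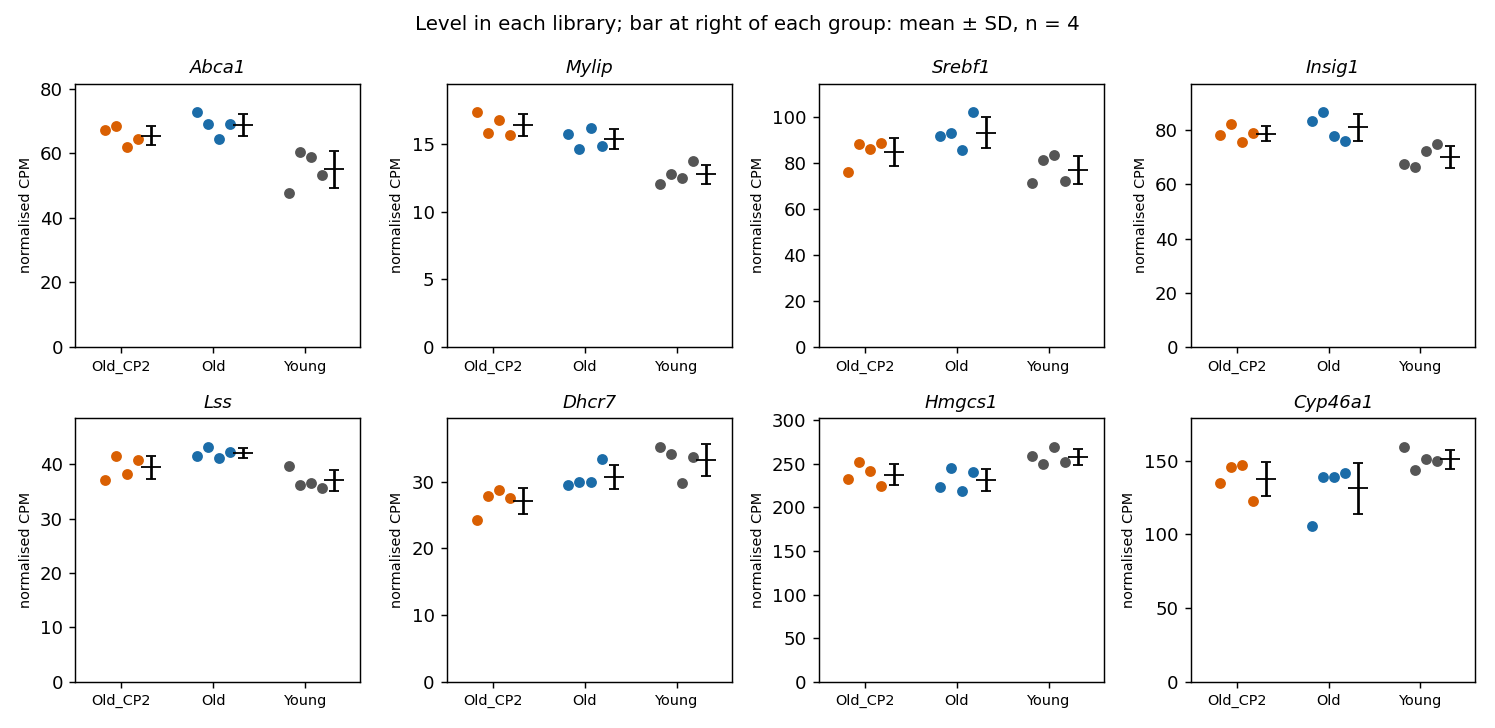
Normalised CPM of 8 members in each library, in Old_CP2, Old and Young, with the mean and SD of 4 libraries at the right of each group and axes that start at 0. Abca1, Mylip, Srebf1, Insig1 and Lss lie higher in all Old than in all Young libraries, and Hmgcs1 and Cyp46a1 lie lower.

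Markers of glia also differed between Old and Young, some upward and some downward. Astrocyte markers summed to between 4876 and 5473 CPM in Old and between 3852 and 4458 CPM in Young, and 6 of 10 were called higher. Microglial markers summed to between 437 and 453 CPM in Old and between 309 and 398 CPM in Young, with 2 of 10 called higher. Oligodendrocyte markers summed to between 5701 and 8087 CPM in Old and between 6337 and 7652 CPM in Young, with 4 of 14 called lower. Markers of oligodendrocyte precursors summed to between 148 and 169.8 CPM in Old and between 182 and 192 CPM in Young, with 1 of 7 called lower. Of the meningeal fibroblast markers, 3 of 8 were called higher. Of the 10 neuron markers, 1 was called higher and 2 were called lower. Among regional markers, 7 of 9 striatal ones were called lower and 8 of 9 midbrain and hindbrain ones higher. The part of cell and tissue composition in the members' changes was not tested. With the 4 libraries poorest in choroid plexus markers left out (Old 7, Old 9, Old_CP2 11 and Old_CP2 15), 2 members were called higher in Old, Srebf1 and Soat1, and 514 genes were called in all. The log2 fold changes of Abca1, Mylip, Insig1 and Lss were then 0.33, 0.21, 0.22 and 0.21, with adjusted p-values of 0.0951, 0.209, 0.167 and 0.135.

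**Figure D4:**
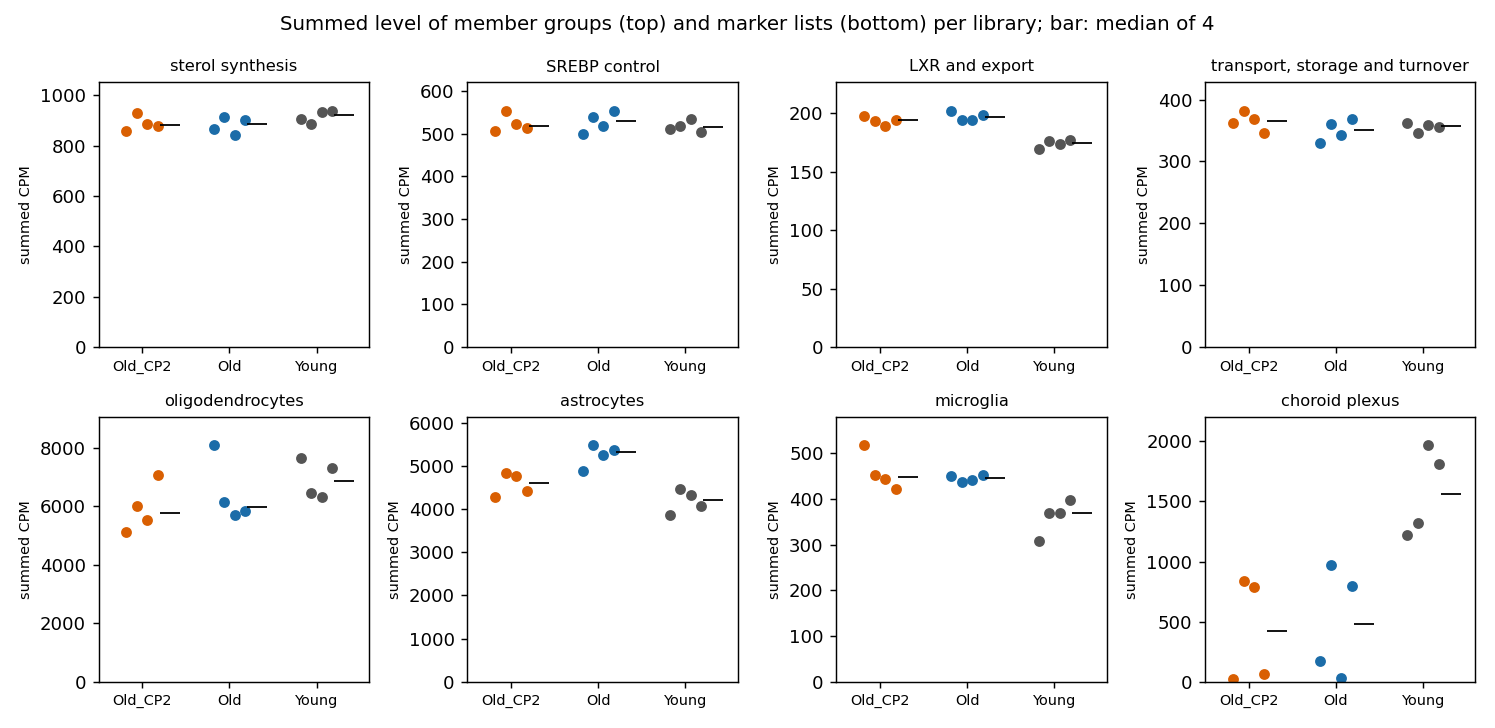
Summed normalised CPM of the 4 groups of members (top) and of 4 marker lists (bottom) in each library, with the median of 4 libraries as a bar. The sum of the LXR and export genes, of which only Abca1 and Mylip were called, is higher in both old groups than in Young. Astrocyte markers are highest in Old, and choroid plexus markers are highest in Young.

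Old_CP2 set against Old asks about CP2 among mice alike in age and strain label. No member was called in either direction, by edgeR or by DESeq2, and at an unadjusted p under 0.05 the only one was Dhcr7. Over all genes, edgeR called 0.0443%, which is 10 of 22553, with 0.0266% higher and 0.0177% lower. An unadjusted p under 0.05 was found for 6.31% of all genes, 3.06% higher and 3.25% lower. The smallest adjusted p among the members was 0.706. Their log2 fold changes ran from -0.18 to 0.18, with a median of 0.0171 beside 0.00174 for all genes. The 95% intervals of all 33 members lay within -0.47 and 0.41 on the log2 scale, so that a change beyond 0.5, which is 1.41-fold, lay outside each interval.

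Dhcr7, the reductase that makes cholesterol from its direct precursor, was at 24.3, 27.9, 28.7 and 27.6 CPM in Old_CP2, against 29.6, 30.0, 29.9 and 33.4 CPM in Old. The groups did not overlap, as was true of 1.82% of all genes in this direction and 1.62% in the other, and the log2 fold change was -0.18 ± 0.0672 (SE, adjusted p = 0.706). The next by p were Srebf1, Lss and Hsd17b7. Srebf1 was at 76.2, 88.6, 86.4 and 89.0 CPM in Old_CP2, against 91.8, 93.3, 85.9 and 102 CPM in Old (log2 fold change -0.13, 95% interval -0.29 to 0.02). Lss was at 37.2, 41.6, 38.2 and 40.8 CPM in Old_CP2, against 41.7, 43.3, 41.3 and 42.2 CPM in Old (-0.09, interval -0.20 to 0.01). Both sets overlap, and in each the lowest value was that of Old_CP2 11. Hsd17b7, another enzyme of methyl removal, was at 21.9, 25.2, 21.7 and 16.6 CPM in Old_CP2, against 20.1, 19.8, 17.3 and 18.2 CPM in Old (0.18, interval -0.05 to 0.41).

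For 3 members that rose in Old against Young, values of the treated and the vehicle group overlapped. Abca1 was at 67.1, 68.5, 61.9 and 64.3 CPM in Old_CP2, with a mean of 65.5 ± 2.94 CPM beside 68.9 ± 3.42 CPM in Old (log2 fold change -0.07, interval -0.22 to 0.07). Mylip was at 17.4, 15.8, 16.7 and 15.7 CPM in Old_CP2, with means of 16.4 ± 0.800 CPM in Old_CP2 and 15.4 ± 0.725 CPM in Old (0.09, interval -0.04 to 0.23). Insig1 was at 78.3, 82.1, 75.6 and 79.0 CPM in Old_CP2, with means of 78.7 ± 2.68 CPM in Old_CP2 and 81.1 ± 4.94 CPM in Old (-0.04, interval -0.16 to 0.07).

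Levels in the treated and the vehicle group were close as well for Hmgcs1, Srebf2, Sqle, Cyp46a1 and Cyp51. Hmgcs1 was at 232, 252, 242 and 224 CPM in Old_CP2 (log2 fold change 0.04, interval -0.08 to 0.15), and Srebf2 at 222, 238, 221 and 206 CPM (0.02, interval -0.11 to 0.15). Sqle was at 62.4, 69.9, 67.7 and 64.2 CPM in Old_CP2 (0.06, interval -0.06 to 0.17), and Cyp46a1 at 135, 146, 147 and 123 CPM (0.07, interval -0.12 to 0.26). Cyp51 was at 58.2, 70.2, 58.1 and 58.1 CPM in Old_CP2, so that its mean of 61.1 ± 6.03 CPM rested on Old_CP2 12. That library had the highest value of its group for 10 of the 18 synthesis enzymes and the lowest for 0, whereas Old 9 had the lowest value of its group for 10. Astrocyte markers had a median summed level of 4594 CPM in Old_CP2 and 5311 CPM in Old, with 0 of 10 called and 7 lower at an unadjusted p under 0.05. Oligodendrocyte markers had a median of 5769 CPM in Old_CP2 and 5992 CPM in Old, and the part of this in the members' values was not tested.

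The comparison of Old_CP2 with Young shares the Young libraries with the comparison of Old with Young, so the 2 are not independent. Here 2 members rose, Mylip and Abca1, and 1 fell, Dhcr7, which is 9.09% of the members beside 7.57% of all genes (4.63% higher and 2.94% lower). Groups did not overlap for 5 members in the upward direction and 1 in the downward direction, against 8.42% and 7.07% of all genes. Marker lists moved here too, with 6 of 14 oligodendrocyte, 1 of 7 precursor and 6 of 9 striatal markers called lower. Called higher were 4 of 10 microglial, 1 of 10 astrocyte, 1 of 10 neuron, 3 of 8 meningeal fibroblast and 8 of 9 midbrain and hindbrain markers. Their part in the members' changes was not tested. Mylip averaged 16.4 ± 0.800 CPM in Old_CP2 and 12.8 ± 0.721 CPM in Young (SD, n = 4 each), with no overlap (log2 fold change 0.36 ± 0.0616 SE, adjusted p = 0.00454). It stayed called without any 1 of the 8 libraries (0.0061 to 0.0207). Abca1 averaged 65.5 ± 2.94 CPM in Old_CP2 and 55.0 ± 5.79 CPM in Young, also with no overlap (0.25 ± 0.0692 SE, adjusted p = 0.0442). Its call was lost without Young 1, Young 5, Old_CP2 11, Old_CP2 12 or Old_CP2 15 (0.0568 to 0.113). It was also lost with these 2 groups fitted alone (0.0623) and with the 4 libraries poorest in choroid plexus markers left out (0.159).

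Dhcr7 was at 24.3, 27.9, 28.7 and 27.6 CPM in Old_CP2, against 35.3, 34.1, 29.9 and 33.7 CPM in Young. All treated values lay below all young ones, and the log2 fold change was -0.29 ± 0.0672 (SE, adjusted p = 0.0201). The call was lost without Young 1 (0.055), Young 3 (0.0503) or Old_CP2 11 (0.0596), and with the 4 libraries poorest in choroid plexus markers left out (0.147). The log2 fold change of Dhcr7 in Old against Young was -0.11 (adjusted p = 0.361), with Old values between the other groups on average.

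Npc1, on the lysosomal route, stood at the edge of the threshold. It was at 84.9, 90.5, 85.7 and 91.8 CPM in Old_CP2, against 81.4, 81.4, 78.0 and 78.2 CPM in Young, with no overlap (log2 fold change 0.15 ± 0.0422 SE, adjusted p = 0.0523 by edgeR and 0.0129 by DESeq2). Exons of Npc1 share 511 bases with the opposite-strand 3110002H16Rik. Soat1 averaged 41.2 ± 5.49 CPM in Old_CP2 and 31.9 ± 2.94 CPM in Young (0.37, adjusted p = 0.0813 by edgeR and 0.0285 by DESeq2). By edgeR it was called without Old_CP2 15 (0.46, adjusted p = 0.0297), with the 2 groups fitted alone (0.0459) and with the 4 libraries poorest in choroid plexus markers left out (0.0263). Mvd, which makes the isoprene unit, averaged 14.2 ± 1.46 CPM in Old_CP2 and 16.6 ± 0.794 CPM in Young (-0.22, adjusted p = 0.0818 by edgeR and 0.0391 by DESeq2), and edgeR called it without Old_CP2 12 (-0.28, adjusted p = 0.0455). Srebf1, at 85.1 ± 6.02 CPM in Old_CP2 and 77.2 ± 6.18 CPM in Young, did not pass (adjusted p = 0.255). Nor did Insig1, at 78.7 ± 2.68 CPM in Old_CP2 and 70.3 ± 4.04 CPM in Young, although its groups did not overlap (adjusted p = 0.0846). Lss averaged 39.5 ± 2.10 CPM in Old_CP2 and 37.1 ± 1.86 CPM in Young (adjusted p = 0.311).

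A further list of 57 genes around the pathway, covering protein prenylation, fatty acid synthesis, SREBP processing, lipoprotein handling, oxysterols and sterol carriers, was examined in the same fit. In Old against Young, 4 of 57 rose and 2 fell, which is 10.5% of the list beside 6.7% of all genes. Rxra, the partner receptor of LXR, averaged 44.5 ± 1.53 CPM in Old and 35.5 ± 2.37 CPM in Young (SD, n = 4 each, log2 fold change 0.33, adjusted p = 0.0038). Its relative Rxrg fell, with 4.36 ± 1.21 CPM in Old and 7.23 ± 1.17 CPM in Young (-0.73, adjusted p = 0.0377). Apod, a lipid-binding apolipoprotein made by glia, averaged 173 ± 42.6 CPM in Old and 110.4 ± 8.13 CPM in Young (0.65, adjusted p = 0.0141). Ch25h, which makes an oxysterol in macrophages and microglia, averaged 0.777 ± 0.0592 CPM in Old and 0.361 ± 0.155 CPM in Young (1.11, adjusted p = 0.02). Lpin1, an SREBP-responsive phosphatase of lipid synthesis, rose by 0.30 (adjusted p = 0.0474), and Osbpl5, an oxysterol-binding protein, fell by 0.42 on the log2 scale (adjusted p = 0.0057). Striatal markers summed to between 230.4 and 288 CPM in Old and between 344 and 567 CPM in Young, with 7 of 9 called lower. The part of such tissue differences in the changes of Rxrg and the rest of this list was not tested.

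In Old_CP2 against Old, 0 of the 57 were called, with 1 higher and 2 lower at an unadjusted p under 0.05 and a smallest adjusted p of 0.412. In Old_CP2 against Young, 4 rose and 1 fell, which is 8.77% of the list beside 7.57% of all genes. Rxra averaged 44.3 ± 0.917 CPM in Old_CP2 and 35.5 ± 2.37 CPM in Young (log2 fold change 0.32, adjusted p = 0.00323). The others were Apod (0.61), Ch25h (1.26) and Lpin1 (0.37), which rose, and Osbpl5 (-0.41), which fell. The median log2 fold change of the list was 0.00985, beside -0.0076 for all genes. The part of tissue differences was again not tested.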

How the data were processed

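RNA of 12 mouse brain libraries was sequenced. The submitters' processing notes name bcl2fastq, TopHat, Subread with featureCounts and the build mm10, and versions are not given in the sources used here. Per the file headers, the deposited gene counts are whole numbers with no scaling, and the deposited RPKM values were made by the authors. RPKM served only to check the deposited length. The library kit does not mark the strand.

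Tests used edgeR 4.0.16 under R 4.3.3 (filterByExpr, TMM, quasi-likelihood F test on all 12 libraries, group as the only term), which tested 22553 genes. P-values are two-sided and adjusted over all of them by Benjamini-Hochberg, and a gene was called below 0.05. Standard errors come from the F statistic. The test was also run on simulated counts, with fold changes larger than those of the members, so that run does not bear on calls of their size. Libraries of a group differed beyond counting noise, the lowest chi-square per gene being 14.7. DESeq2 1.42.0, other factors, no filter, other sets of libraries and leaving out single libraries were tried. Values in every library are given for called members, for the members of smallest p up to 4 per comparison, and for 8 fixed members. Members, lists and the rule were chosen with earlier results of these data known.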

Additional observations from a re-analysis of the deposited data

Results flagged for a closer look

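In 99 sets of 4 libraries, 1 for each member and group, 6 had a highest or lowest library that stood apart by Dixon's 95% criterion on the gap to the nearest other library. Chance alone flags about 1 in 20 such sets. Old 7 was at 106 CPM for Cyp46a1, where the other Old libraries were at 139 to 142 CPM. Old_CP2 12 was at 70.2 CPM for Cyp51, where the other treated libraries were at 58.1 to 58.2 CPM. Old_CP2 11 was at 73.4 CPM for Msmo1, with the others at 78.3 to 79.3 CPM, and Old 10 was at 33.4 CPM for Dhcr7, with the others at 29.6 to 30.0 CPM. For Abcg1, Old_CP2 15 was at 63.6 CPM with the others at 65.4 to 65.5 CPM, and Young 5 was at 63.8 CPM with the others at 59.1 to 59.4 CPM.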

How the results depend on the processing

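No paired analysis was possible because the groups share no replicate numbers. No called member changed sign under any alternative run. DESeq2 called 2474, 108 and 2652 genes in Old against Young, Old_CP2 against Old and Old_CP2 against Young, against 1511, 10 and 1707 by edgeR. It called 2 members lower in Old than Young, and 4 higher and 2 lower in Old_CP2 against Young. With the 2 groups compared alone, 3 members were higher in Old than Young. With no filter, 17 genes were called in Old_CP2 against Old. With the 4 libraries poorest in choroid plexus markers left out, 514, 21 and 709 genes were called, 2 members were higher in Old than Young and 0 were lower in Old_CP2 than Young. Leaving out single libraries gave 855 to 1258, 6 to 38 and 827 to 1590 genes. The count moved by over 1.5 times without Young 4 (855), Young 5 (971), Old 7 (934) or Old 9 (952) in Old against Young. In Old_CP2 against Old it did so without Old 9 (6) or Old_CP2 15 (38), and in Old_CP2 against Young without Young 1 (1050), Young 4 (1036), Old_CP2 11 (827) or Old_CP2 12 (1043). Members called were then 1 to 3 higher and 0 to 1 lower in Old against Young, 0 in Old_CP2 against Old, and 1 to 2 higher and 0 to 2 lower in Old_CP2 against Young. The causes of these shifts were not tested.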

Other observations

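Many genes of fatty acid synthesis and desaturation are known targets of SREBP-1. Scd1, Mid1ip1 and Fasn of the further list are given here with group means, and others with log2 fold changes. Scd1, a fatty acid desaturase, averaged 243 ± 38.6 CPM in Old_CP2, 294 ± 37.4 CPM in Old and 242 ± 18.4 CPM in Young (SD, n = 4 each), with an edgeR adjusted p of 0.73 in Old_CP2 against Old and 0.158 in Old against Young. Mid1ip1, an activator of acetyl-CoA carboxylase, averaged 91.9 ± 6.79 CPM in Old_CP2, 105 ± 5.88 CPM in Old and 93.7 ± 1.56 CPM in Young (adjusted p = 0.412 and 0.0827 in the same comparisons). Fasn, the fatty acid synthase, averaged 367 ± 20.9 CPM in Old_CP2, 371 ± 28.0 CPM in Old and 381 ± 12.5 CPM in Young (adjusted p = 0.974 and 0.794). None of these 3 was called. Mid1ip1 was higher in all Old than in all Young libraries, and the other ranges overlapped. Other genes of this kind differed in direction, given as log2 fold change in Old against Young and then in Old_CP2 against Old. Scd2 was at 0.14 and -0.09, Fads1 at 0.13 and -0.10, and Fads2 at 0.08 and -0.14. Elovl6 was at -0.07 and 0.09, and Acly at -0.03 and 0.02. Acaca was at 0.05 and 0.07, and Acss2 at -0.03 and -0.10. These genes were not called either.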
